A study of Mus musculus with 6 samples.

Results

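The genes examined were the 4 H3K9 methyltransferase genes Ehmt1, Ehmt2, Suv39h1 and Suv39h2 and the 3 heterochromatin protein 1 (HP1) genes Cbx1, Cbx3 and Cbx5. They were taken by gene name, 7 of the 12626 genes in each sample, and all 7 were measured in every sample. RNA-seq of the J1 line, a wild-type mouse embryonic stem (ES) cell line grown without feeder cells on gelatin, had been made in serum (D0) and 6 and 13 days after the switch to 2i+vitC (D6 and D13), with 2 biological replicates for each time. The series follows how these cells adapt when DNA methylation is lost during that switch. The serum medium was Glasgow medium with FBS, L-glutamine, non essential amino acids, sodium pyruvate, β-mercaptoethanol and LIF. In 2i+vitC, the base was neurobasal medium mixed with DMEM/F12, and the additions were Ndiff Neuro2, B27, L-glutamine, β-mercaptoethanol, LIF, the Gsk3 inhibitor CT-99021, the MEK inhibitor PD0325901 and vitamin C. LIF was therefore present on all 3 days, and the effects of serum removal, the inhibitors and vitamin C cannot be told apart. The labels of the 6 samples name no deletion or transgene, and all 6 are of the J1 line.

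Methylation of lysine 9 of histone H3 marks silent chromatin. EHMT1 (GLP) and EHMT2 (G9a) form a complex that deposits the dimethyl mark, SUV39H1 and SUV39H2 deposit the trimethyl mark at pericentromeric repeats and at interspersed transposons, and HP1 proteins read the methylated lysine through their chromodomain and compact the chromatin. In ES cells these marks take part in the silencing of transposons, next to DNA methylation.

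From serum to D6, the RNA of Ehmt1, Suv39h1 and Cbx1 fell, by 1.91-fold, 2.50-fold and 1.74-fold. From D6 to D13 no member passed the test, although the mean of Suv39h1 was 2.14-fold higher on D13 (limma adjusted p = 0.0502). On D13, Ehmt1, Cbx1 and Suv39h2 were below serum, by 2.23-fold, 1.95-fold and 1.85-fold. Ehmt2, Cbx3 and Cbx5 did not pass the test in any comparison. Within the same libraries, the ratios of Ehmt1 to Ehmt2, of Suv39h1 to Suv39h2 and of Cbx1 to Cbx5 differed between D0 and D6 without overlap of the replicates. So did that of Cbx1 to Cbx3, while that of Cbx3 to Cbx5 overlapped. The changes of the ratios were not tested, and the levels of 68.4% of all genes and families also did not overlap between these days.

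Values are given as CPM, reads scaled to the TMM-adjusted library total, and changes as log2 fold changes with the standard error (SE) from limma fitted to all genes and transposon families. A gene was said to rise or fall at an adjusted p under 0.05, and the fold changes above are read on the log2 CPM scale. The libraries held between 73230745 and 83688345 reads on genes. The members held between 1595 and 58717 reads per library, so that the counting error of a member was at most 2.50%. Of 8 ES cell markers, 8 were measured, with a summed level of 4508 to 4531 CPM in serum, 5383 to 5684 CPM on D6 and 4653 to 6781 CPM on D13. Within that sum, Nanog and Dppa5a rose from serum to D13, by 1.37 and 1.31 on the log2 scale (limma adjusted p = 0.0014 and 0.014), and Utf1 and Sox2 fell by 2.96 and 0.69 (limma adjusted p = 0.00012 and 0.031). The near-equal sums in serum hid differences between the 2 serum replicates. There, Tdgf1 was at 1184 and 433 CPM, Esrrb at 156 and 436 CPM and Zfp42 at 476 and 859 CPM. Of 8 fibroblast markers 4 were measured, with a summed level of 36.7 to 137 CPM in serum, 241 to 352 CPM on D6 and 168 to 170 CPM on D13. Vim made up most of that sum, and rose from serum by 2.42 on the log2 scale to D6 and by 1.61 to D13 (limma adjusted p = 0.011 and 0.040). Its 2 serum replicates were at 107 and 26.6 CPM. Col1a1 and Col1a2 fell from serum to D13. Thy1 fell by 1.89 to D6 (limma adjusted p = 0.016) but did not pass from serum to D13 (limma adjusted p = 0.31). Col3a1, Dcn, Lum and Postn were not analysed here. For primitive endoderm, 5 of 8 markers were measured, between 73.6 and 128 CPM in sum over all days, most of it from Lama1. Dab2 of this list was at 15.9 and 16.8 CPM in serum and at most 1.02 CPM in the later samples. It fell by 4.32 on the log2 scale to D6 and by 4.66 to D13 (limma adjusted p = 0.00015 and 7.0e-05). Amn fell by 2.89 to D6 (limma adjusted p = 0.0056), but did not pass from serum to D13 (limma adjusted p = 0.49). Pdgfra, Sox17 and Lama1 did not pass in any comparison. For 2-cell-like cells 4 of 8 markers were measured, with 9.10 to 11.6 CPM in serum, 5.04 to 5.68 CPM on D6 and 0.813 to 1.22 CPM on D13. The part of these marker changes in the results was not tested. In bulk RNA, fewer cells that express a gene and less RNA per cell cannot be told apart.

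**Figure D1:**
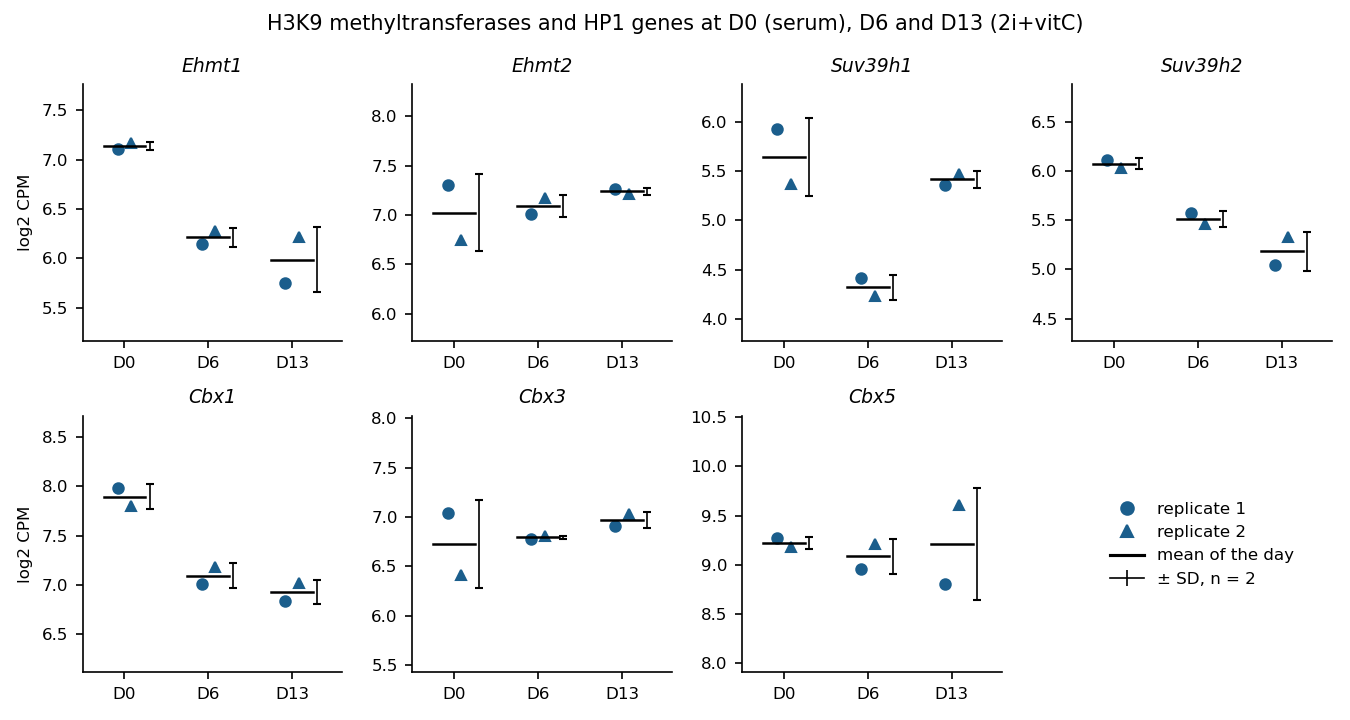
log2 CPM of the 7 genes in serum, D6 and D13. Points are the 2 replicates, horizontal lines the mean of the day and bars the SD (n = 2), and every panel spans the same range on the log2 scale. Ehmt1, Suv39h2 and Cbx1 lay lower on D6 and D13 than in serum, Suv39h1 was lowest on D6, and the replicates of Ehmt2, Cbx3 and Cbx5 overlapped between D0 and the later days.

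Ehmt1 encodes GLP and lies on chromosome 2 at 24789928 to 24919614 on the minus strand (GRCm38). It was at 138 and 144 CPM in serum, 70.6 and 77.8 CPM on D6 and 54.0 and 74.5 CPM on D13. Both D0 samples were above all 4 samples in 2i+vitC, while those of D6 and D13 overlapped. The log2 fold change was -0.93 from serum to D6 (SE 0.23, limma adjusted p = 0.018) and -1.16 from serum to D13 (SE 0.23, limma adjusted p = 0.0040). Between D6 and D13 it was -0.23 (SE 0.23, limma adjusted p = 0.58), with a 95% confidence interval from 0.598 to 1.22 times the D6 level. Without any one of the 4 libraries of D0 and D6, the adjusted p of the first step rose above the threshold, to between 0.055 and 0.18, while the log2 fold change was -0.86 or lower. The decrease by D13 passed the test in all 14 alternative fits.

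Ehmt2 encodes G9a, the catalytic partner of GLP, and lies on chromosome 17 at 34898469 to 34914052 on the plus strand (GRCm38). Its level was 158 and 107 CPM in serum, 129 and 144 CPM on D6 and 154 and 148 CPM on D13. The D0 replicates enclosed the 4 samples of the later days. The log2 fold change was 0.07 from serum to D6 (SE 0.24, limma adjusted p = 0.88), with a confidence interval from 0.721 to 1.52 times the D0 level. Relative to serum, D13 differed by 0.22 (SE 0.24, limma adjusted p = 0.49), with an interval from 0.799 to 1.69 times the D0 level. A decrease on D13 of the size seen for Ehmt1 lay outside that interval.

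Within each sample, the ratio of Ehmt1 to Ehmt2 per length of merged exons was 0.593 and 0.908 in serum. It was 0.370 and 0.366 on D6, and 0.237 and 0.339 on D13. The 3 days did not overlap, and the ratio was lower on each later day. On the log2 scale the mean went from -0.45 ± 0.44 in serum to -1.44 ± 0.01 on D6 and -1.82 ± 0.37 on D13 (SD, n = 2). An exact permutation test of 2 against 2 samples cannot give a p below 0.333, and the changes of the ratios were not tested. Ehmt1 made up 37.2% and 47.6% of the summed level of the pair in serum and 19.2% and 25.3% on D13. The summed level itself was 45.8 and 37.3 CPM per kb in serum, 32.2 and 35.8 on D6 and 34.7 and 36.2 on D13.

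Suv39h1 lies on chromosome X at 8061171 to 8074760 on the minus strand (GRCm38), and its protein trimethylates H3K9 at pericentromeric heterochromatin. It was at 60.7 and 41.2 CPM in serum, 21.3 and 18.7 CPM on D6 and 40.9 and 44.4 CPM on D13. Both D6 samples were below all 4 others, and the D13 samples overlapped those of D0. From serum to D6 the log2 fold change was -1.32 (SE 0.25, limma adjusted p = 0.0058), and 7.71% of all genes had a lower value. From D6 to D13 it was 1.09 (SE 0.25, limma adjusted p = 0.0502), a 2.14-fold difference with a confidence interval from 1.43 to 3.19 times the D6 level that just missed the threshold. Only 4.53% of all genes had a higher value in that step. From serum to D13 the log2 fold change was -0.23 (SE 0.25, limma adjusted p = 0.49), with an interval from 0.571 to 1.27 times the D0 level. Without D6 replicate 2, the adjusted p of the first step was 0.054 at a log2 fold change of -1.23. The second step passed the threshold in 7 of 14 alternative fits. Over the 14 fits its adjusted p ranged from 0.022 to 0.40 and its log2 fold change from 1.00 to 1.18. An antisense gene, Gm14820, shares 767 exon bases with Suv39h1. The library kit kept the strand, but the strand setting of the read counting is not given in the sources used here, and with unstranded counting the reads of both genes could not be told apart.

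Suv39h2, the second gene of this kind, lies on chromosome 2 at 3455815 to 3475031 on the minus strand (GRCm38). Its values were 69.1 and 65.5 CPM in serum, 47.4 and 44.0 CPM on D6 and 32.9 and 40.1 CPM on D13. The 3 days did not overlap, and each later day was lower. From serum to D6 the log2 fold change of -0.56 (SE 0.22, limma adjusted p = 0.099) did not pass the test, although it did in 3 of 14 alternative fits, with an adjusted p of 0.046 with only the days compared. It passed from serum to D13, with -0.89 (SE 0.22, limma adjusted p = 0.011), in the fit reported and in all 14 alternatives. Between D6 and D13 it was -0.33 (SE 0.22, limma adjusted p = 0.38). Suv39h2 shares 357 exon bases with Dclre1c on the other strand. Dclre1c, looked up after the values were seen, was at 71.1 and 47.4 CPM in serum, 76.7 and 78.2 CPM on D6 and 56.3 and 61.5 CPM on D13, and passed the test in no comparison.

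The ratio of Suv39h1 to Suv39h2 per length was 0.735 and 0.526 in serum and 0.375 and 0.357 on D6. On D13 it was 1.04 and 0.927. The order of the days was therefore D6, D0 and D13, with no overlap between them. On the log2 scale the mean was -0.69 ± 0.34 in serum, -1.45 ± 0.05 on D6 and -0.03 ± 0.12 on D13 (SD, n = 2). The differences between days do not depend on the gene length used, but the side of 1 does, since in serum the log2 mean was 0.05 per length of the longest transcript. The summed level of both genes was 27.2 and 22.7 CPM per kb in serum, 14.8 and 13.5 on D6 and 15.2 and 17.5 on D13, so that both later days lay below D0.

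**Figure D2:**
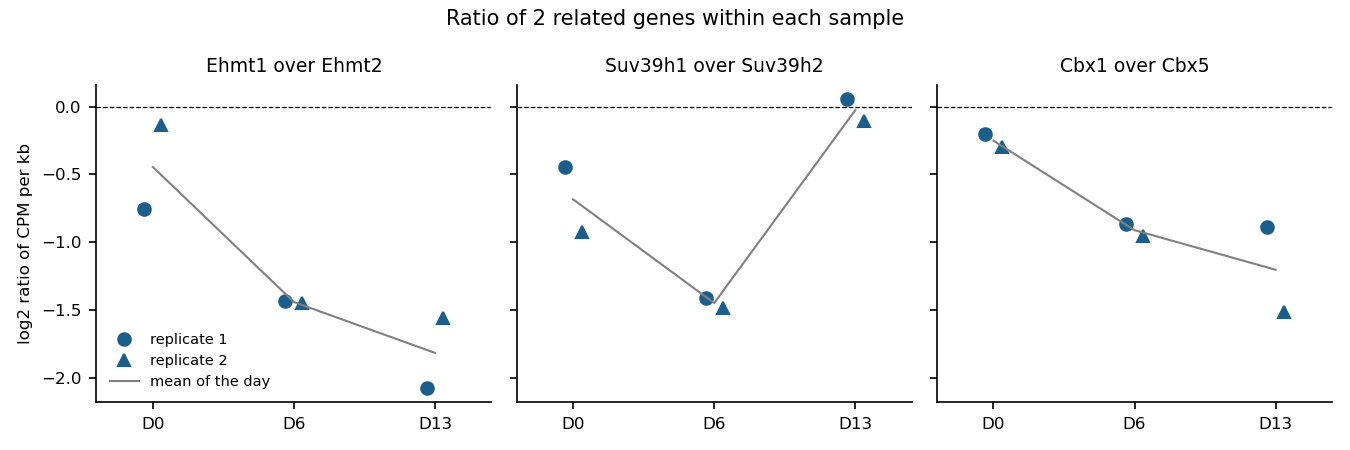
log2 ratio of 2 related genes, each as CPM per kb of merged exons, within each sample of D0, D6 and D13. Points are replicates, the grey line joins the means and the dashed line marks equal levels. The ratio of Ehmt1 to Ehmt2 was -0.75 and -0.14 in serum and -1.43 or lower in the 4 later samples, that of Suv39h1 to Suv39h2 was lowest on D6 and highest on D13, and that of Cbx1 to Cbx5 was higher in serum than in any later sample.

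Among the HP1 genes, Cbx1 (HP1β) lies on chromosome 11 at 96789127 to 96808640 on the plus strand (GRCm38). It was at 254 and 224 CPM in serum, 129 and 145 CPM on D6 and 115 and 129 CPM on D13. Both D0 samples were above the 4 later samples, and those of D6 and D13 overlapped. The log2 fold change was -0.80 from serum to D6 (SE 0.21, limma adjusted p = 0.022), -0.17 from D6 to D13 (SE 0.21, limma adjusted p = 0.65) and -0.97 from serum to D13 (SE 0.21, limma adjusted p = 0.0059). The first decrease did not pass without D0 replicate 1, D6 replicate 1 or D6 replicate 2, with an adjusted p of 0.082, 0.28 and 0.14. The decrease by D13 passed in all 14 alternative fits.

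Cbx3 (HP1γ), an HP1 protein also found in active genes, lies on chromosome 6 at 51470360 to 51483704 on the plus strand (GRCm38). It was at 131 and 84.9 CPM in serum, 110 and 112 CPM on D6 and 120 and 130 CPM on D13. Both D0 replicates enclosed the later samples. The log2 fold change was 0.07 from serum to D6 (SE 0.25, limma adjusted p = 0.88) and 0.24 from serum to D13 (SE 0.25, limma adjusted p = 0.45), the second with an interval from 0.803 to 1.75 times the D0 level. 11 annotated pseudogenes matched the Cbx3 transcript over at least 200 bases at 90% identity or more, against 1 for Cbx1 and 0 for Cbx5. How the authors' counting treated reads that match several copies was not tested, and the level of Cbx3 is uncertain to that extent.

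Cbx5 (HP1α), the form most concentrated in pericentromeric heterochromatin, lies on chromosome 15 at 103191544 to 103239816 on the minus strand (GRCm38). It was at 616 and 580 CPM in serum, 497 and 594 CPM on D6 and 448 and 782 CPM on D13. The D13 replicates enclosed all other samples, and their SD of 0.57 on the log2 CPM scale was the largest of any member and day. The log2 fold change was -0.14 from serum to D6 (SE 0.29, limma adjusted p = 0.78), with an interval from 0.575 to 1.44 times the D0 level. Relative to serum, D13 differed by -0.01 (SE 0.29, limma adjusted p = 0.97), with an interval from 0.626 to 1.57 times the D0 level. A true change of any size within these intervals remains possible with these replicates.

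The ratio of Cbx1 to Cbx5 per length was 0.867 and 0.813 in serum. It was 0.547 and 0.516 on D6 and 0.540 and 0.349 on D13, below both D0 samples. The ratio of Cbx1 to Cbx3 was 2.71 and 3.69 in serum, 1.64 and 1.83 on D6 and 1.34 and 1.39 on D13, with no overlap between days. That of Cbx3 to Cbx5 overlapped between all days, with values between 0.220 and 0.403. Per length of merged exons, Cbx1 gave 39.6% and 40.0% of the summed HP1 level in serum and 27.8% and 21.8% on D13. The sum was 150 and 131 CPM per kb in serum, 104 and 119 on D6 and 96.6 and 139 on D13, where D13 overlapped both other days. The overlap with serum depends on the length used. Per length of the longest transcript the sum was 221.6 and 189.0 in serum and 140.1 and 187.9 on D13. Per longest protein-coding transcript it was 279 and 233 against 177 and 229. On both of these lengths the D13 samples lay below those of D0.

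**Figure D3:**
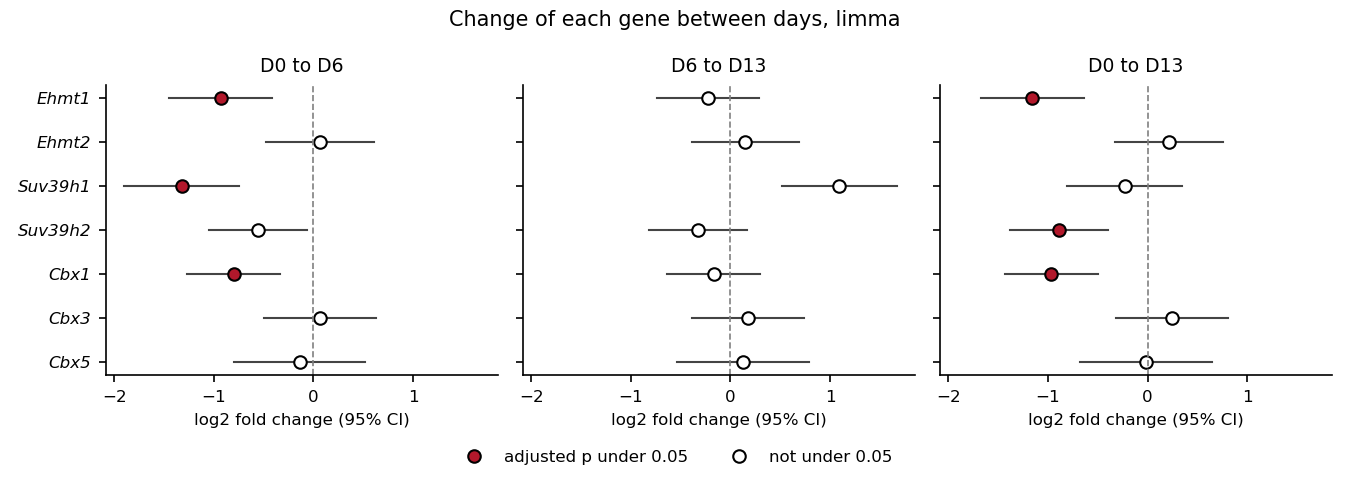
log2 fold change of each gene between days, from limma, with its 95% confidence interval. Filled points had an adjusted p under 0.05. Ehmt1, Suv39h1 and Cbx1 were filled from serum to D6 and Ehmt1, Suv39h2 and Cbx1 from serum to D13, all to the left of 0, and the interval of Suv39h1 from D6 to D13 lay to the right of 0 with an adjusted p of 0.0502.

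Counted over the members, 3 of 7 fell from serum to D6, where 10.2% of the 12928 genes and families fell and 23.9% changed in either direction. The median log2 fold change was -0.56 for the members and -0.01 for all genes, and the median size of the change over all genes was 0.46. Without D0 replicate 1 or D6 replicate 1 only Suv39h1 passed, and without D6 replicate 2 no member did, in fits that called 19.4%, 12.4% and 14.1% of all genes and families. From D6 to D13, limma called 0 of 7 members at an adjusted p under 0.05 and 1 at an unadjusted p under 0.05, where 4.18% and 24.8% of all genes and families passed, and limma with voom weights also called 0. In that step the log2 fold changes of Ehmt2, Cbx3 and Cbx5 were 0.15, 0.18 and 0.12 (limma adjusted p = 0.74, 0.70 and 0.83). From serum to D13, 3 of 7 fell, beside 21.5% of all genes and families that fell and 42.1% that changed in either direction, and the 42.9% of members called was close to the second share. The median log2 fold change was -0.23 for the members and -0.01 for all genes. The median size of the change was smaller for the members than for all genes, 0.24 against 0.70. From D6 to D13 these sizes were 0.18 and 0.39. The study's own criterion for genes, which adds a change of more than 4-fold, was met by 0 members in the 3 comparisons, and by 9.75%, 1.1% and 13.3% of all genes and families. The replicates of both days did not overlap for 4, 4 and 3 members in the 3 comparisons, beside 68.4%, 60.7% and 68.8% of all genes and families. The comparisons share samples and are not independent of each other.

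Levels of different genes were compared as CPM per kb of merged exons. In serum the order was Cbx5 (66.4 ± 2.9), Cbx1 (55.8 ± 5.0), Ehmt2 (24.2 ± 6.5), Cbx3 (18.1 ± 5.5), Ehmt1 (17.4 ± 0.5), Suv39h2 (15.3 ± 0.6) and Suv39h1 (9.66 ± 2.62) (SD, n = 2). The replicates of Ehmt2 overlapped with those of Cbx3, and those of Cbx3 with Ehmt1, while the other neighbours in this order did not overlap. On D6 the order differed in 1 place, with Suv39h2 (10.4 ± 0.6) above Ehmt1 (9.15 ± 0.62), and no neighbours overlapped. On D13 Cbx5 was at 68.3 ± 26.3, Cbx1 at 28.6 ± 2.4 and Ehmt2 at 27.5 ± 0.7, where Cbx1 and Ehmt2 overlapped. Ehmt1 had become the lowest of the 7, at 7.91 ± 1.79, but overlapped with Suv39h1 at 8.09 ± 0.47 and Suv39h2 at 8.28 ± 1.15. This order depends on the length used. Per length of the longest protein-coding transcript, Cbx1 was above Cbx5 in serum, with 131 ± 12 against 67.9 ± 2.9. Per length of the longest transcript, Ehmt1 was above Suv39h2 on D6, with 12.5 ± 0.9 against 10.6 ± 0.6 and no overlap. On D13, Cbx1 was then at 51.4 ± 4.4, above Ehmt2 at 37.6 ± 1.0, with Cbx3 between them. Suv39h1 was at 13.7 ± 0.8, above Ehmt1 at 10.8 ± 2.4 without overlap, and Suv39h2 was lowest of the 7 at 8.44 ± 1.17, overlapping with Ehmt1. For these genes other than Cbx1 and Cbx3, the longest protein-coding transcript gave the same levels.

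**Figure D4:**
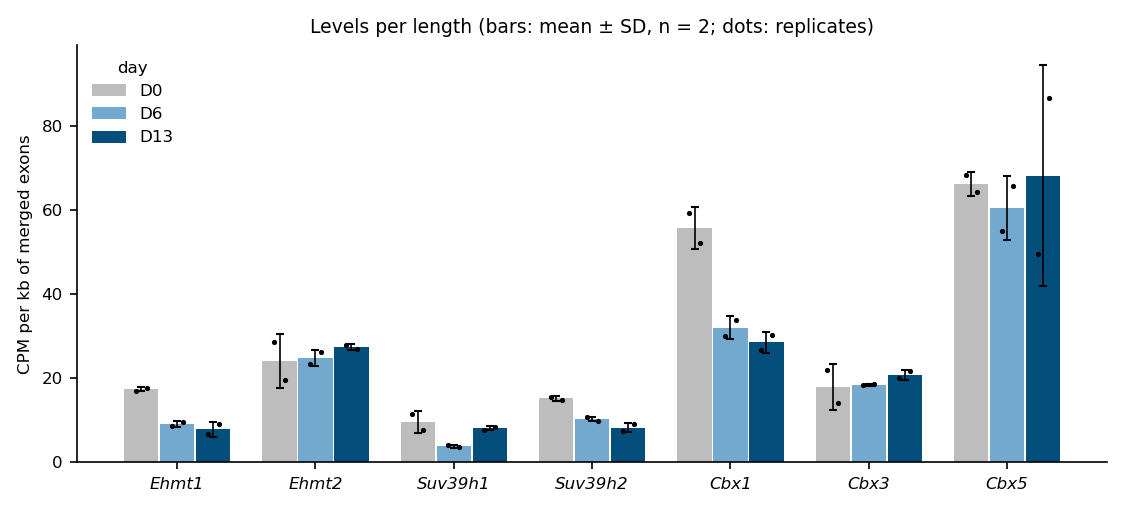
CPM per kb of merged exons of the 7 genes in serum, D6 and D13. Bars are means, error bars the SD and dots the replicates (n = 2). Cbx1 went from 55.8 in serum to 28.6 on D13, where it overlapped with Ehmt2 on this length, and Ehmt1, Suv39h1 and Suv39h2 lay between 7.91 and 8.28 on D13.

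For each member, the 2 genes whose course over the 6 samples was nearest were found by the root mean square difference of log2 CPM after centring, among 10522 genes with at least 50 reads in every sample. For Ehmt1 these were Pbx3, with a difference of 0.04 on the log2 scale, and A630072M18Rik, with 0.07. Cbx1 was nearest to Hnrnph1 and Clint1, both with 0.06. Suv39h2 was nearest to Brcc3 and Mob4, both with 0.07. The nearest genes to Suv39h1, Morc4 and Pak6, were further away, with 0.12 and 0.16. Ehmt2 was nearest to Ywhaq and Srpr, Cbx3 to Ints8 and Dtwd2, and Cbx5 to Kcnd1 and Clasp1, with differences between 0.05 and 0.08. With 6 samples that share 3 days, such likeness is a description.

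Most promoters of the members held more CpG dinucleotides than the typical promoter, with a promoter taken as the 300 bases around each start annotated by RefSeq on GRCm38.p6. The 11 promoters of the 7 genes held a median of 32 CpG dinucleotides, against a median of 20 in 11411 promoters of genes in the files. Of the 11, 2 lay below that median, 1 of the promoters of Cbx5 with 8 and 1 of Suv39h1 with 15. Promoter methylation was not analysed here.

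Around the members, 36 other genes of H3K9 methylation were measured, in 4 lists. From serum to D6, 1 rose and 3 fell, 11.1% of the list beside 23.9% of all genes and families. From D6 to D13, 2 fell, 5.56% of the list beside 4.18%, and from serum to D13, 2 rose and 10 fell. The median log2 fold change from serum to D13 was -0.26 over the 36 genes. With only the days compared, 8 passed from serum to D13, and Setdb2, Pogz, Chaf1a and Morc2a did not, beside 34.2% of all genes and families. Without a trend 10 passed, and Pogz and Morc2a did not, beside 38.9%. The 12 called by D13 are 33.3% of the list, beside 42.1% of all genes and families. Leaving out 1 library moved these counts: the first was 2 without D0 replicate 1, 1 without D6 replicate 1 and 2 without D6 replicate 2, and the second was 0 without D6 replicate 1, D6 replicate 2 or D13 replicate 1 and 7 without D13 replicate 2. The share of all genes and families called moved with them, to 19.4%, 12.4% and 14.1% in the first 3 of these fits and to 0.495%, 0.162%, 0.0% and 10.5% in the other 4.

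Among the other methyltransferases, 4 genes were measured. From serum to D13, 1 rose and 1 fell, 50% of the list beside 42.1% of all genes and families. Setdb1, which trimethylates H3K9 at endogenous retroviruses, was at 176 and 176 CPM in serum, 232 and 253 CPM on D6 and 140 and 191 CPM on D13, and no comparison passed the test. Setdb2 fell by 0.84 on the log2 scale from serum to D13 (limma adjusted p = 0.036). Prdm16, at 1.97 and 5.01 CPM in serum, rose by 1.58 (limma adjusted p = 0.025) to 7.63 and 11.6 CPM.

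Of 9 partners of the EHMT and SETDB1 complexes, 4 fell from serum to D13 and the other 5 did not pass. This was 44.4% of the list, beside 21.5% of all genes and families that fell and 42.1% that changed in either direction. Zfp644, a zinc finger partner of the EHMT complex, was at 96.8 and 131 CPM in serum, 57.0 and 52.7 CPM on D6 and 17.4 and 40.2 CPM on D13. Its log2 fold change was -2.09 from serum to D13 (SE 0.37, limma adjusted p = 0.0024), larger than that of any member. Cdyl, a chromodomain protein that binds the EHMT complex, fell by 1.22 (limma adjusted p = 0.0068). Pphln1, a subunit of the HUSH silencing complex, fell by 1.03 (limma adjusted p = 0.011), and Morc2a, an ATPase that works with HUSH, by 0.74 (limma adjusted p = 0.028). Trim28, which recruits SETDB1, was at 1877 and 1390 CPM in serum, 1249 and 1527 CPM on D6 and 1302 and 966 CPM on D13 and did not pass in any comparison.

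Of 13 HP1 partners and readers of the mark, 1 rose and 3 fell from serum to D13, 30.8% of the list beside 42.1% of all genes and families. Uhrf1, which reads H3K9 methylation and brings in the maintenance DNA methyltransferase, was at 405 and 367 CPM in serum, 816 and 851 CPM on D6 and 1218 and 1195 CPM on D13. It rose by 1.11 on the log2 scale from serum to D6 (SE 0.22, limma adjusted p = 0.0060) and by 1.65 to D13 (SE 0.22, limma adjusted p = 0.00054). Adnp, which binds HP1 proteins as part of the ChAHP complex, was at 200 and 294 CPM in serum, 201 and 212 CPM on D6 and 48.0 and 99.7 CPM on D13. Its decrease of 1.58 from D6 to D13 passed the test (SE 0.35, limma adjusted p = 0.043). Pogz, a zinc finger protein that binds HP1, and Chaf1a, the HP1-binding subunit of the chromatin assembly factor, fell from serum to D13 by 0.84 and 0.69 on the log2 scale (limma adjusted p = 0.035 and 0.021).

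On the erasing side, 2 of 10 H3K9 demethylase genes fell from serum to D13. This was 20% of the list, beside 21.5% of all genes and families that fell and 42.1% that changed in either direction. Jmjd1c was at 260 and 344 CPM in serum, 109 and 111 CPM on D6 and 38.9 and 88.9 CPM on D13, and fell by 2.35 on the log2 scale (SE 0.36, limma adjusted p = 0.0012). Kdm4c, which removes the trimethyl mark, fell by 1.27 from serum to D6 (limma adjusted p = 0.0042) and by 1.10 to D13 (limma adjusted p = 0.0055). Kdm3a, which removes the dimethyl mark, fell by 1.01 from D6 to D13 (limma adjusted p = 0.034), with 252 and 248 CPM on D6 and 118 and 130 CPM on D13.

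**Figure D5:**
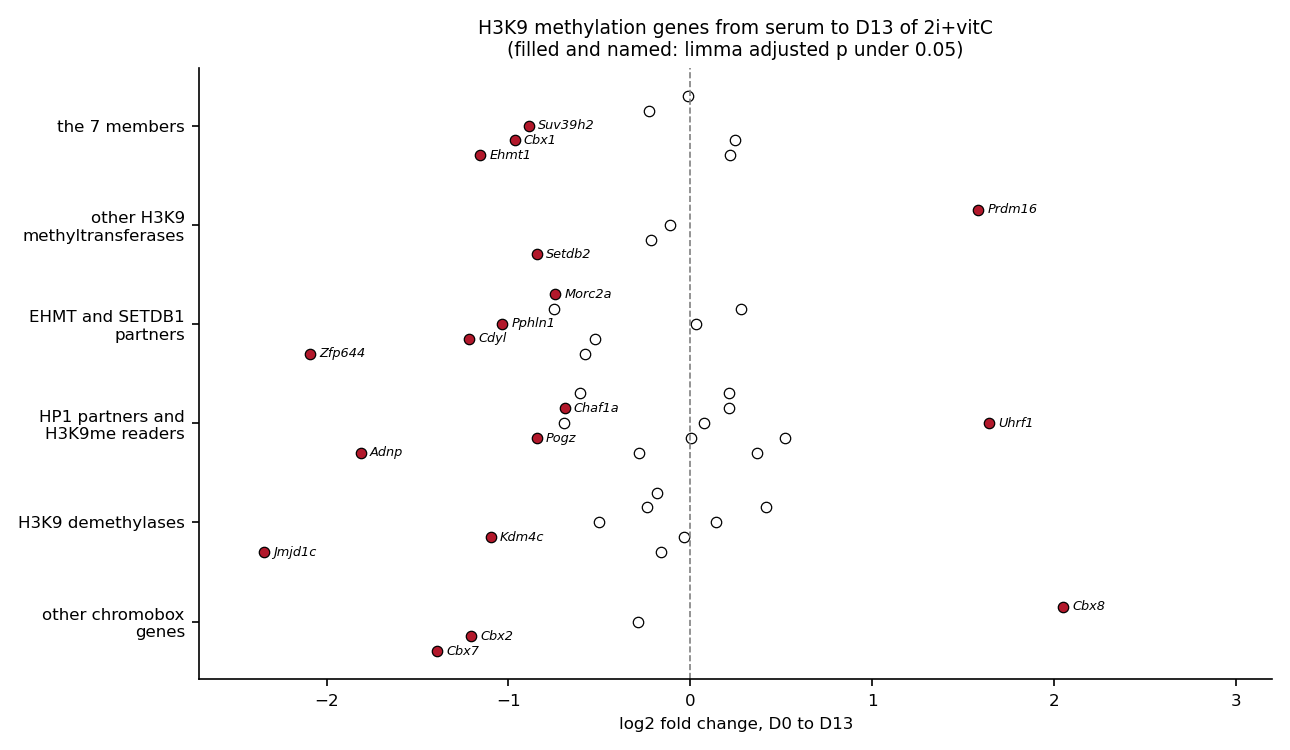
log2 fold change from serum to D13 of the 7 members, of 36 further genes of H3K9 methylation in 4 lists and of 4 other chromobox genes. Each point is a gene, spread vertically for legibility, and filled, named points had a limma adjusted p under 0.05. In the 4 lists 10 filled points lie left of 0 and 2, Prdm16 and Uhrf1, right of it.

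Beside the HP1 genes, 4 chromobox genes that encode Polycomb proteins, readers of H3K27 methylation, were examined. From serum to D13, Cbx8 rose by 2.05 on the log2 scale (limma adjusted p = 0.0095), from 1.67 and 0.66 CPM to 4.83 and 3.91 CPM. Cbx7 fell by 1.39 (limma adjusted p = 0.0018) and Cbx2 by 1.21 (limma adjusted p = 0.0072), while Cbx6 did not pass. The genes called were 75% of the 4, beside 42.1% of all genes and families.

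Of 4 transposon families known as targets of H3K9 methylation, 2 rose from serum to D6, 3 fell from D6 to D13 and 3 fell from serum to D13. These were 50%, 75% and 75% of the 4, beside 23.9%, 4.18% and 42.1% of all genes and families called in either direction. Only 302 of those 12928 rows are families, and the 4 were chosen with earlier results of these data known, so the shares are no test. L1Md_A, a young LINE-1 family, was at 1088 and 1644 CPM in serum, 2841 and 2990 CPM on D6 and 486 and 740 CPM on D13. It rose by 1.12 on the log2 scale to D6 (limma adjusted p = 0.029) and fell by 1.16 from serum to D13 (limma adjusted p = 0.016). IAPEz-int, an endogenous retrovirus family, was at 153 and 126 CPM in serum, 435 and 230 CPM on D6 and 202 and 266 CPM on D13. It rose by 1.19 to D6 (limma adjusted p = 0.026), and its 0.74 from serum to D13 did not pass (limma adjusted p = 0.091). L1Md_T and MERVL-int did not pass from serum to D6, with log2 fold changes of 0.61 and -0.13 (limma adjusted p = 0.13 and 0.85). From D6 to D13, L1Md_A, L1Md_T and MERVL-int fell by 2.28, 1.84 and 1.91 (limma adjusted p = 0.016, 0.017 and 0.034), and IAPEz-int did not pass. From serum to D13, L1Md_T fell by 1.24 (limma adjusted p = 0.0052) and MERVL-int fell by 2.04 (limma adjusted p = 0.0032). Their relation to the members was not tested.

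As Chaf1a and Uhrf1 act at replicating DNA, 20 proliferation genes were read beside the members. From serum to D6, only Mki67 of these 20 fell (limma adjusted p = 0.049) and none of the others passed. This was 5% of the list, beside 23.9% of all genes and families. By D13, 5 fell, among them Plk1 by 1.27 and Mki67 by 0.91 on the log2 scale (limma adjusted p = 0.0025 and 0.035), and E2f1 and Mcm6 rose by 0.97 and 0.89 (limma adjusted p = 0.019 and 0.010). Together these were 35% of the list, beside 42.1% of all genes and families. The median log2 fold change of the 20 genes was 0.11 from serum to D6 and -0.01 from serum to D13, beside -0.56 and -0.23 for the members. The part of proliferation in the changes of the members was not tested.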

How the data were processed

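J1 ES cells had been profiled by RNA-seq on D0, D6 and D13 with 2 biological replicates each, and the labels gave the day of each sample. The authors mapped paired-end reads to mm10 with TopHat2 2.0.6 and RefSeq genes, counted them with HTSeq 0.6.1 and counted transposon families separately with Bowtie 1.0.0. They joined both tables, applied TMM scaling and deposited log2 CPM values made with voom, 1 value per row and sample. Each deposited log2 value of a gene corresponded to a whole number of reads within 0.01, once the voom offset of 0.5 and a factor for the library were taken out, and 3 reads were 0.034 to 0.042 CPM.

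The 7 members and all gene lists were chosen with earlier results of these data known, and some genes of the lists are not reported here. The 12626 genes and 302 families were fitted together with limma 3.58.1 (R 4.3.3), with a mean for each day, a mean-variance trend, all 6 samples and no block. The trend stands in for the voom weights, which the files used here do not hold. Adjusted p-values are from Benjamini-Hochberg, with all 12928 rows together. The fit was tested on simulated data. Python 3.11.15 with pandas 2.3.3 and numpy 2.4.6 served for tables. Gene lengths and positions are from GENCODE vM21 on GRCm38, whereas the authors counted on RefSeq. The capital G is missing from all gene names used here, which spares the members.

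Genes were named from the members, Setdb1, Trim28, Uhrf1 and, of each list, up to 4 genes with the largest log2 fold change from D0 to D13 at an adjusted p under 0.05 and 10 reads or more in both samples of whichever day was higher, and for each member the 2 genes of nearest course. Kdm3a, Cbx6, Tdgf1, Esrrb, Zfp42, Thy1, Amn, Lama1, Pdgfra, Sox17, IAPEz-int, Dclre1c, Gm14820 and the markers that were not analysed here were named outside this rule, after their values were seen. Alternatives were a minimum of 10 reads in 2 samples, a fit without the third day, the replicate number as a block, a fit without each single sample (its lone partner assumed to vary like the other days), no trend, voom weights on the reads, log2(CPM + 1), centring on the median gene, adjustment over genes only, stricter thresholds and other gene lengths. The lengths of protein-coding transcripts, and every other length for summed levels, were tried after seeing the data. With 2 replicates, an SD rests on 2 values. Of the repeat families, 4 were described and the others only entered the fit.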

Additional observations from a re-analysis of the deposited data

How the results depend on the processing

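Of the 3 members that fell from serum to D6, 1 was left at an adjusted p under 0.01 and 1 at a change of over 2-fold (Suv39h1 both times), and 0 at over 4-fold. Leaving out 1 library gave 0 to 4 members for this step, in fits that called 12.4% to 27.6% of all genes and families. From D6 to D13, the count of 0 became 1, Suv39h1, with only the days compared, with log2(CPM + 1), with centring on the median gene and with adjustment over genes only, and was 0 to 1 when a library was left out. From serum to D13, 1 of 3 members was left at over 2-fold and 0 at over 4-fold, and no alternative fit changed which 3 fell. For the 36 H3K9 genes, leaving out 1 library gave 1 to 6 calls from serum to D6 and 0 to 7 from D6 to D13, where the same fits called 12.4% to 27.6% and 0.0% to 10.5% of all genes and families. At an adjusted p under 0.01 the 3 counts were 2, 0 and 6, at over 4-fold 0, 0 and 2, and at over 2-fold the count to D13 was 8. Without a trend the count from D6 to D13 was 0.

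With 1 library left out, the log2 fold change of Ehmt1 from D6 to D13 ranged from -0.46 to 0.0064. That of Ehmt2 ranged from -0.21 to 0.34 to D6 and from -0.061 to 0.49 to D13 relative to serum, that of Cbx3 from -0.25 to 0.38 and from -0.071 to 0.56, and that of Suv39h1 from serum to D13 from -0.51 to 0.050. For Cbx5 it ranged from -0.28 to 0.53 from D6 to D13 and from -0.42 to 0.39 from serum to D13, and centring on the median gene turned the latter to 0.0011. None of these values passed the test in the fit reported. The change of the log2 ratio of Cbx1 to Cbx5 from D6 to D13 ranged from -0.61 to 0.023. In serum, this ratio was -0.25 per merged exon length, 0.56 per longest transcript and 0.94 per longest protein-coding transcript, and that of Suv39h1 to Suv39h2 turned from -0.69 to 0.046 with both. Each reversal comes from fewer samples, from another gene length or, for Cbx5, from the centring itself.

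Whether the replicate numbers pair the samples was not settled by the data, and the fit reported used no block. The differences between replicates 1 and 2 correlated over genes with r = -0.13 for D0 with D6, 0.33 for D6 with D13 and 0.14 for D0 with D13, which is a description across genes. Under the replicate block, 3, 1 and 3 members passed in the 3 comparisons, and 5, 4 and 13 of the 36 genes, beside 27.3%, 9.68% and 46.2% of all genes and families. The 1 member from D6 to D13 was Suv39h1, in the step where 4.18% of all genes and families passed without the block.

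Depth did not limit the members, which had at least 1595 reads per library. The 2 replicates per day did, as no exact test of a single value can reach the threshold and each SD rests on 2 values.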
